A study of Mus musculus with 15 samples.

Results

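Cytosolic ribosomal protein genes encode the protein subunits of the ribosome that translates nuclear mRNAs. Their gene ends were located in a table of merged ATAC-seq peaks from mouse pancreatic tumour cells. The members are the protein-coding genes with symbols Rpl or Rps followed by a number, with Rplp0, Rplp1, Rplp2 and Rpsa, without the Rps6k and Mrp genes and without the sex chromosomes. Of 83 genes that met the symbol rule, 4 lay on chromosome X and 79 on autosomes. For each gene the peak with the highest mean count within 1000 bp of either end of the gene record was taken. This gave 75 peaks for 75 genes, among 67945 merged peaks in all, and all 75 passed the filter on low counts that 59252 peaks passed. The remaining 4 genes, Rps2, Rpl10l, Rpl32l and Rpl39l, had no listed peak within that distance. The symbol rule uses no measured value, although the gene set was proposed with results of these data in view, and the counts chose among several peaks at 14 genes.

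ATAC-seq uses a transposase to insert adapters into open DNA, so read counts follow accessibility. Each library came from 50000 tumour cells sorted, 3 weeks after subcutaneous implantation into untreated C57BL/6 mice, from a tumour grown from 1 clone of pancreatic tumour cells. The labels call the tumours T cell high (6 clones: 2838c3, 6421c2, 6499c4, 6555c3, 6620c1 and 7160c2) or T cell low (7 clones: 6694c2, 6556c3, 6499c3, 6422c1, 6419c5, 6419c1 and 2699c4). The 2 clones labelled T cell intermediate were not analysed here. No genotype or age of the host mice is given in the labels used here, and each clone stands as 1 library, so p-values measure the spread between clones. The tests took all clones as independent. The labels used here do not say whether clones that share the number in their names have a common origin. The cells were sequenced in bulk, and accessibility in fewer cells cannot be told apart from less accessibility per cell.

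Total counts in peaks ran from 968296 in 7160c2 to 7369228 in 6419c1, and 6556c3 had 1030616. The member with the fewest reads in any library had 2 counts, and the one with the most had 849. All 10 tumour cell markers, among them keratins and Epcam, had a tested gene-end peak, with a summed level from 209 to 436 counts per 1000000 counts (CPM) over the clones. Of 12 leukocyte markers 4 had one (Ptprc, Cd53, Coro1a and Spi1), with a sum of 36.9 to 67.8 CPM in T cell high and 44.5 to 85.4 CPM in T cell low clones. A single endothelial marker of 10 (Sox17, 0 to 50.9 CPM) and a single fibroblast marker of 10 (Col1a1, 16.8 to 37.9 CPM) had one. Of 10 muscle and skin markers 4 had one, with a sum of 42.7 to 79.8 CPM.

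A ribosome needs its proteins in nearly equal numbers, and the genes for them, scattered over nearly all chromosomes, are transcribed at high rates in growing cells. Their promoters are known for a start site inside a run of pyrimidines. The run becomes the 5′ terminal oligopyrimidine tract of the mRNA, through which mTOR and LARP1 control its translation. Binding sites for ETS family factors such as GABP, for YY1 and for SP factors are known from many of these promoters. In tumours, Myc is known to raise ribosome production.

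The letters at the annotated starts are given for members that carry these features or that stand out below. Each window holds 60 bases before the start and 20 bases from it, in RefSeq's GRCm38.p6 assembly. The first set shows long pyrimidine runs over or beside the start. Capitals mark the run and, in Rpl38 and Rps10, also the ETS core CCGGAAG.
Rpl7a (chr2:26910747-26910826, + strand): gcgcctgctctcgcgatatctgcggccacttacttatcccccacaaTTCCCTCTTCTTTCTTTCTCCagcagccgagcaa
Rpl27a (chr7:109519135-109519214, + strand): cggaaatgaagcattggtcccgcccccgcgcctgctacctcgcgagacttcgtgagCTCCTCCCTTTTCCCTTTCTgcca
Rpl15 (chr14:18270967-18271046, - strand): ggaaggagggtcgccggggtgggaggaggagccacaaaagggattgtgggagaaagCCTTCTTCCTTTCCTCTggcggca
Rps6 (chr4:86857348-86857427, - strand): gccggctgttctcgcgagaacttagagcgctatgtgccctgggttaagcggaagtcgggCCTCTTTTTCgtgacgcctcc
Rpl38 (chr11:114668520-114668599, + strand): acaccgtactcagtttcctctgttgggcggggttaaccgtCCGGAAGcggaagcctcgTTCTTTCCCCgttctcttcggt
Rps10 (chr17:27635225-27635304, - strand): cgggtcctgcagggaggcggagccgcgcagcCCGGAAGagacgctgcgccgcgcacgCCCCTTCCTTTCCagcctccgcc

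The second set shows starts with other features. Capitals mark CCGGAAG read on the opposite strand in Rps7, the YY1 core AAGATGGC read on the opposite strand together with the pyrimidine run it overlaps in Rps15a, TATAAA (on both strands, overlapping) and the pyrimidine run in Rpl22l1, and the run in Rps26.
Rps7 (chr12:28635934-28636013, - strand): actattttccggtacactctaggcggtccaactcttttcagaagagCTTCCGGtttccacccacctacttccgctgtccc
Rps15a (chr7:118116128-118116207, - strand): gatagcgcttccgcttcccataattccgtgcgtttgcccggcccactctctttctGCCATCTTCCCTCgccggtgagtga
Rpl22l1 (chr3:28805448-28805527, + strand): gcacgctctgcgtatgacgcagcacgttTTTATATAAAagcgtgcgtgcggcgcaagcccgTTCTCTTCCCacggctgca
Rps26 (chr10:128626487-128626566, - strand): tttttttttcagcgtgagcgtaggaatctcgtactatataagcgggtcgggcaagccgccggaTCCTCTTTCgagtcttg

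A promoter entry was found for 59 of the 79 autosomal genes, and 55 of those had a gene-end peak. A run of 8 or more C and T that covers the start or begins within 5 bases of it was present in 21 of the 55 (38.2%), against 7.17% of 17492 protein-coding genes and 7.36% of the 8734 with a peak over their start. The runs reached 21 bases in Rpl7a and 20 in Rpl27a and Rpl34. CCGGAAG, searched on both strands from 250 bases before to 50 after the start, was present in 22 members (40.0%), against 12.9% of all genes and 21.4% of those with a peak over the start. AAGATGGC was present in 6 members (10.9%), against 3.57% and 5.48%. GGGCGG, the core of the GC box read by SP and KLF factors, was present in 33 (60%), against 49.2% and 72.2%. TATAAA was present in 4 (7.27%), against 14.8% and 8.30%, and the E box CACGTG in 6 (10.9%), against 8.91% and 11.8%. A gene with several starts counts once if any of its windows holds the letters. CCGGAAG can end or begin inside a pyrimidine run, as in Rpl34, and AAGATGGC can as in Rps15a, so the features are not independent. The 21 members with the run had a median level of 31.3 CPM per kb and the 34 without it 24.0 CPM per kb, over ranges of 15.2 to 76.2 and 8.15 to 79.6 CPM per kb that overlapped almost fully. Members with CCGGAAG had a median of 30.1 CPM per kb and those without it 30.6 CPM per kb. These levels include peaks that were not over the annotated start, at Rpl41, Rpl19, Rpl3l, Rpl18 and Rpl4. The lowest level, 8.15 CPM per kb, was that of Rpl19.

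The chosen peaks were 642 to 1846 bp long, with a median of 1105 bp, against 1104 bp for all gene-end peaks. Of the 55 with an annotated start, 50 lay over it. The peaks of Rpl41, Rpl19, Rpl3l, Rpl18 and Rpl4 did not. Those of Rpl41, Rpl3l and Rpl4 lay at the 3′ end of the gene record, so for these the name promoter does not hold. That of Rpl18 covered the 5′ end of its gene record and that of Rpl19 lay 300 bp from it, so for both the name is uncertain. At 22 members the peak was also a gene-end peak of another gene. Coordinates are those of the deposited table.

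Every member had reads in every clone, and levels ranged over more than 1 order of magnitude. The median member had 31.0 CPM, or 30.7 CPM per kb of peak, against 27.3 CPM and 23.8 CPM per kb for 11993 other autosomal gene-end peaks and 8.29 CPM and 12.1 CPM per kb for peaks away from gene ends. Of the 75, 49 lay above the median of tested gene-end peaks per kb.

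**Figure D1:**
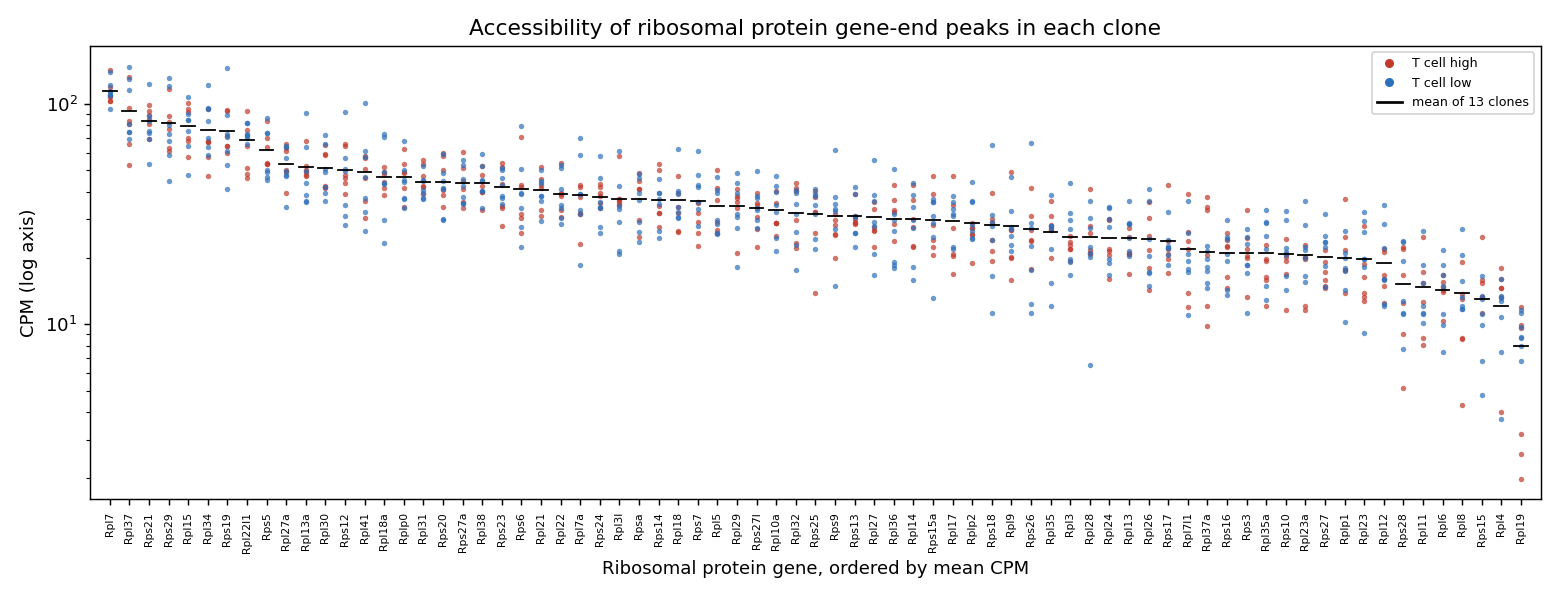
CPM (log axis) of 73 ribosomal protein gene-end peaks in each of 13 clones, with genes on the horizontal axis ordered by mean; points are clones, coloured by group, and bars are means. Rpl7 has the highest mean (114 CPM) and Rpl19 the lowest (8.01 CPM), and the 2 groups overlap at every gene.

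The highest levels per length were at Rpl37 (79.6 CPM per kb), Rpl15 (76.2), Rps19 (67.9), Rps21 (64.5), Rps29 (63.8) and Rpl22l1 (63.6). Rps19 is the gene most often mutated in Diamond-Blackfan anaemia, and Rpl22l1 is the paralog of Rpl22. Rpl37 ran from 52.9 to 133 CPM with a median of 82.3 in T cell high clones and from 68.9 to 147 with a median of 81.2 in T cell low clones. Rpl15 ran from 57.4 to 101 CPM (median 80.9) in T cell high and from 47.3 to 108 CPM (median 84.3) in T cell low clones. The groups overlapped nearly completely at both, and neighbours in this order differed by less than their spread between clones. The peaks of Rpl37 and Rpl15 are also at the ends of Card6 and Nkiras1, and that of Rps21 at the end of Cables2. Their reads cannot be divided between the genes.

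The lowest levels per length were at Rpl19 (8.15 CPM per kb), Rpl4 (10.1), Rpl6 (11.4) and Rpl11 (13.7). Rpl4 lines the exit tunnel of the ribosome, and Rpl11 is known to bind Mdm2 when ribosome assembly is disturbed. The peak of Rpl19 (chr11:98022303-98023285) lay at the end of Cacnb1, and that of Rpl4 (chr9:64178738-64179934) at the end of Snapc5, in both cases away from the annotated start of the ribosomal protein gene. The peaks of Rpl6 and Rpl11 lay over their own starts and over no other gene's end.

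Of the 6 paralogs of ribosomal protein genes, Rpl22l1, Rpl3l, Rpl7l1 and Rps27l had a peak, and Rpl10l and Rpl39l, known for expression in testis, had none. Rpl22l1 ran from 45.9 to 92.9 CPM in all, Rps27l from 22.5 to 49.6 CPM and Rpl7l1 from 11 to 38.9 CPM. Rpl3l, a paralog of Rpl3 known from striated muscle, had 20.9 to 61.0 CPM, but its peak (chr17:24736107-24737006) was also at the end of Msrb1 and not over a start of Rpl3l. The 4 paralogs thus lay within the range of the other members.

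The question the study poses, where chromatin differs between T cell high and T cell low tumours, had no called peak among the members. None of the 75 passed an adjusted p of 0.05 (edgeR quasi-likelihood F-test, Benjamini-Hochberg over 59252 peaks), as none of all tested peaks did, so percent called was 0. At an unadjusted p under 0.05 there was 1 member, Rps7, against 6.83% of all tested peaks and 5.14% of tested gene-end peaks. At that p, 3.86% of all tested peaks were higher and 2.96% lower in T cell high clones, and 1.84% of tested gene-end peaks were higher and 3.29% lower. Rps7 was lower. Fold changes were at most 0.51 in size on the log2 scale, with estimates above 0 at 33 members and below 0 at 42. Their median was -0.012, and that of other autosomal gene-end peaks was -0.059. No member had groups that did not overlap, which occurred at 0.162% of all tested peaks and 0.169% of gene-end peaks. DESeq2 called 47 peaks and limma-voom 0 over the whole table, and neither called a member.

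**Figure D2:**
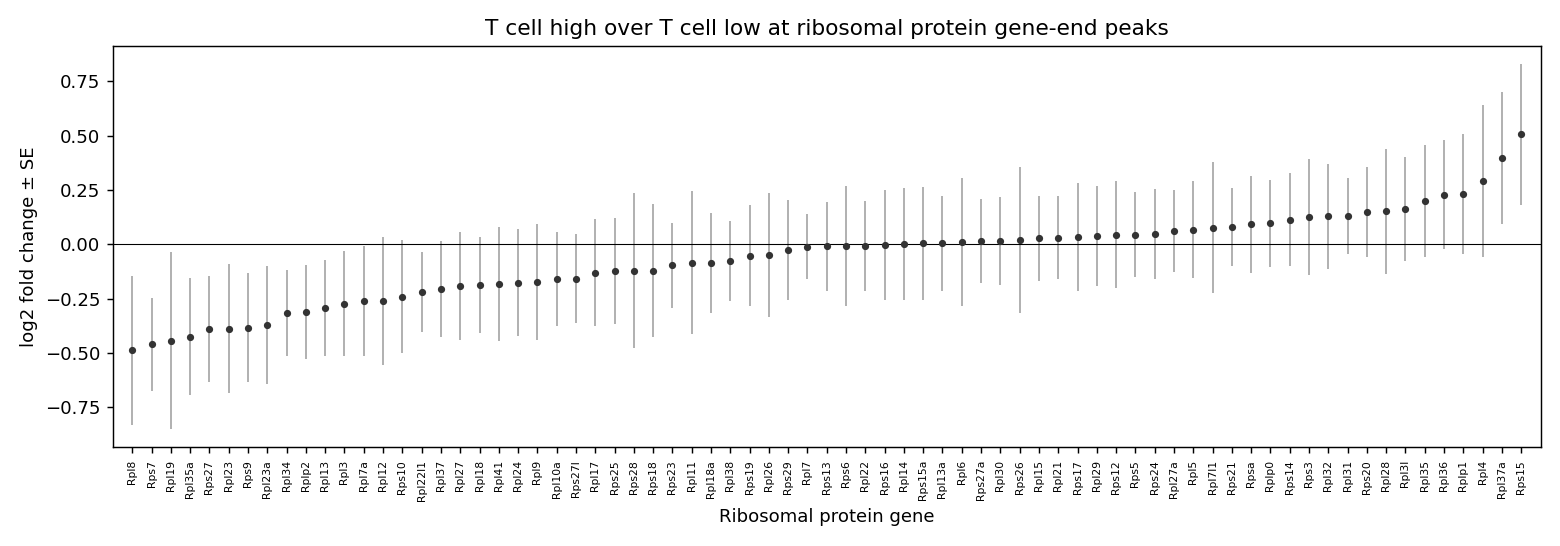
Log2 fold change of T cell high over T cell low (vertical axis) with its standard error for each of 73 ribosomal protein gene-end peaks, ordered by value. The estimates reach 0.51 at Rps15 and are spread on both sides of 0.

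Rps7, a small subunit protein that is also known to bind Mdm2, had from 22.8 to 35.7 CPM with a median of 30.5 in T cell high clones and from 28.0 to 61.3 CPM with a median of 42.0 in T cell low clones. The groups overlapped, and 2699c4 (61.3 CPM) and 6499c3 (47.6 CPM) were the highest clones. The means were 30.2 ± 5.25 (SD, n = 6) and 41.5 ± 10.9 CPM (SD, n = 7). The log2 fold change was -0.46 with a standard error of 0.21, and the edgeR adjusted p was 0.719 (unadjusted p = 0.0405). Without 2699c4 it was -0.34, and with the chromosome dosage described below as an offset it was -0.31.

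The next smallest p-values were at Rps27, Rpl34, Rpl35a, Rps15 and Rps9. Rps27 ran from 14.7 to 21.7 CPM in T cell high and from 14.8 to 31.5 CPM in T cell low clones, with a log2 fold change of -0.39. Rpl34 ran from 46.9 to 95.0 CPM and from 58.7 to 122 CPM, with -0.32. Rps9, a small subunit protein known for decoding accuracy, ran from 19.9 to 31.5 CPM and from 14.9 to 62.0 CPM, with -0.38, which was -0.19 without 6499c3. Rps15 was the 1 of these with the higher mean in T cell high clones, 15.7 ± 4.83 against 10.8 ± 4.05 CPM (SD, n = 6 and 7), with 0.51, which was 0.34 without 7160c2. Rpl35a had 17.8 ± 3.77 and 23.7 ± 7.56 CPM (SD, n = 6 and 7), with -0.42, and lies on chromosome 16. None of the 5 had an unadjusted p under 0.05.

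For chromosome 16, the median deviation of its other peaks averaged -0.077 ± 0.21 (SD, n = 6) over T cell high against 0.16 ± 0.25 (SD, n = 7) over T cell low clones on the log2 scale, with ranges of -0.34 to 0.16 and -0.090 to 0.50. The ranges overlapped, the means differed by less than the larger SD, and this difference was not tested. For chromosome 3 the averages were -0.068 ± 0.20 (SD, n = 6) over T cell high and 0.14 ± 0.14 (SD, n = 7) over T cell low clones. Their ranges, -0.30 to 0.29 and -0.036 to 0.36, also overlapped. Here the means differed by slightly more than either SD, and this was not tested. With the dosage of each chromosome as an offset, the log2 fold change of Rpl35a was -0.19 and that of Rpl34, on chromosome 3, was -0.12. That of Rps27, also on chromosome 3, was -0.21 with this offset and -0.10 with the local dosage described below.

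The other genes of translation were compared in the same fit, where 1.84% of gene-end peaks were higher and 3.29% lower in T cell high clones at an unadjusted p under 0.05 (5.14% in all). Of 78 mitochondrial ribosomal protein genes 75 had a gene-end peak (74 tested peaks), and 2 of these were higher and 4 lower at that p. Of 52 initiation, elongation and release factors 50 had one, with 0 higher and 1 lower. Of 57 ribosome assembly factors all 57 had one, with 0 higher and 2 lower. Of 20 genes of RNA polymerase I and its factors 16 had one, with 0 in either direction. None of these peaks was called by edgeR, and their median log2 fold changes were -0.051, -0.13, -0.10 and -0.14 in this order.

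Of 17 genes for activators named at ribosomal protein promoters, 15 had a gene-end peak, and 4 were lower in T cell high clones at an unadjusted p under 0.05 and 0 higher, against 3.29% and 1.84% of gene-end peaks. The 4 were Myc, Gabpa, Max and Gabpb2. The median log2 fold change of the 15 was -0.28. None of the 15 was called by edgeR, and whether this list differs from gene-end peaks in general was not tested. Gabpa, the DNA-binding subunit of GABP, had means of 71.2 ± 17.3 CPM (SD, n = 6) for T cell high against 109 ± 20.4 CPM (SD, n = 7) for T cell low, a log2 fold change of -0.63 with an edgeR adjusted p of 0.582. Gabpa lies on chromosome 16, and with the chromosome dosage as an offset its log2 fold change was -0.42. The value of Myc rested on 2699c4, which had 2468 CPM at its gene-end peak; the log2 fold change was -2.93 with all clones and -0.33 without 2699c4.

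Of the 10 genes with the smallest p-values in these lists, 2 from each, 7 lay on chromosome 16: Gabpa, Mrpl39, Eif2b5, Gspt1, Lsg1, Polr2h and Rrn3. Chromosome 16 held 2010 tested peaks besides those of members, of 58017 tested autosomal peaks in all. The 10 genes were picked by p in these data, and none of Gspt1, Polr2h and Rrn3 had an unadjusted p under 0.05. Whether chromosome 16 is overrepresented among gene-end peaks with small p-values was not tested. Mrpl39, a protein of the large mitochondrial subunit, had 36.4 ± 14.3 and 60 ± 10 CPM (SD, n = 6 and 7), with a log2 fold change of -0.71 and -0.48 with the offset. Eif2b5, a subunit of the exchange factor for eIF2, had -0.64 and -0.39 with the offset, and the release factor gene Gspt1 -0.41 and -0.15. Lsg1, a GTPase of large subunit maturation, had -0.63 and -0.37 with the offset, and Polr2h, a shared polymerase subunit, -0.41 and -0.15. Rrn3, the initiation factor of RNA polymerase I, had -0.54 and -0.32. The offset takes nearly the same amount from every gene of a chromosome, so these shifts are not separate observations. Outside chromosome 16, Mrps17 was at 0.69 and Utp14a at -0.93 on the log2 scale, neither of them called.

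Summed together, the members varied from clone to clone more than from group to group. Their summed level averaged 2685 ± 177 CPM (SD, n = 6) over T cell high against 2776 ± 528 CPM (SD, n = 7) over T cell low clones. The means differed by less than either SD. The lowest sum was 2172 CPM in 6419c5 and the highest 3714 CPM in 6499c3, a 1.71-fold range found within the T cell low group. Without 6499c3 the T cell low mean was 2619 ± 360 CPM (SD, n = 6).

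**Figure D3:**
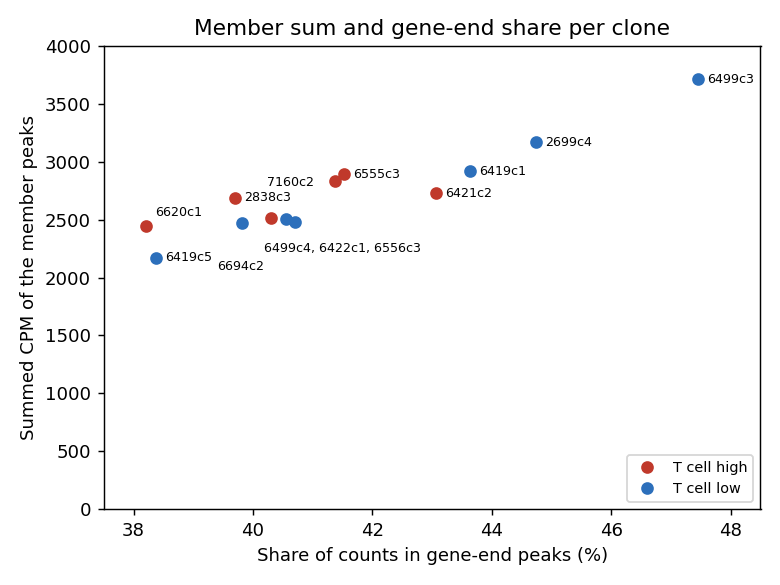
Summed CPM of the 75 ribosomal protein gene-end peaks (vertical axis) against the share of all counts in gene-end peaks (horizontal axis, %) for each of 13 clones, coloured by group. The clone 6499c3 is highest on both axes, 2699c4 is next on both, and 6419c5 is lowest in the sum.

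The same clones stood apart over gene-end peaks in general. Gene-end peaks held 47.5% of counts in 6499c3, 44.7% in 2699c4, 38.4% in 6419c5 and 38.2% in 6620c1. The median member lay 0.43 above its own mean over clones on the log2 scale in 6499c3, where the median gene-end peak lay 0.26 above. In 2699c4 the values were 0.28 and 0.18, and in 6419c5 they were -0.28 and -0.11. The highest clone was 6499c3 at 29 of 75 members and 2699c4 at 11, while the lowest was 6556c3 at 17 and 6419c5 at 14. In 6556c3 the gene-end share was 40.7% and the median gene-end peak lay at -0.047, both inside the range of the other clones. That library had 1030616 counts, and the deviations of its members had an SD of 0.516, with 0.515 in 7160c2. How often each clone was highest or lowest over gene-end peaks in general is not given here. The depth of 6499c3 was 3283310 counts, and its leukocyte marker sum, 59.3 CPM, lay inside the range of the other clones. Its tumour cell marker sum, 418 CPM, was the highest of the T cell low clones. Whether depth or cell content bears on its member sum was not tested. The part of the gene-end share in the member sum was not tested.

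Clones that share the number in their names were not the most alike at these genes. Over 78 pairs of clones, 6499c3 and 6499c4 had the smallest median absolute difference in dosage over chromosomes, at 0.047 on the log2 scale, and ranked 4 by the mean absolute difference. They ranked 70 in the median absolute difference over members, at 0.53, and 55 over gene-end peaks. The clones 6419c1 and 6419c5 ranked 3 in dosage by both measures, 53 over members and 21 over gene-end peaks.

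Between clones the members varied slightly less than other gene-end peaks at the median and more rarely to extremes. The SD of log2 CPM over 13 clones had a median of 0.417 for members, 0.442 for other autosomal gene-end peaks and 0.709 for peaks away from gene ends. The biological coefficient of variation, which edgeR estimates after counting noise, was 0.877 of the trend for its level at the median member and 0.889 at the median of other gene-end peaks. It lay below the trend at 66 members (88%), against 77.9%. In the other lists this share was 94.6% for mitochondrial ribosomal protein genes and 80% for initiation, elongation and release factors. For assembly factors it was 86.0% and for RNA polymerase I genes 87.5%. The other genes of translation had a similar spread, with a median SD of 0.414 for mitochondrial ribosomal protein genes, 0.405 for initiation, elongation and release factors and 0.379 for assembly factors. The SDs were not matched for level. These values carry no test, since the members were proposed with results in view.

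**Figure D4:**
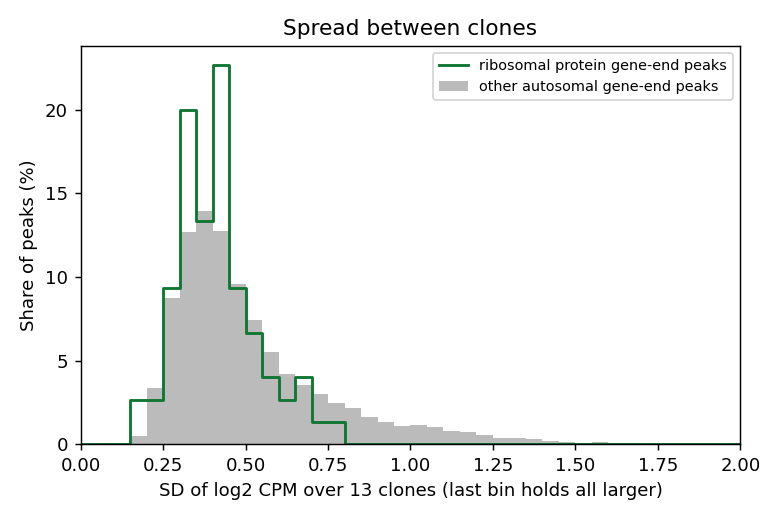
Share of peaks (vertical axis, %) by SD of log2 CPM over 13 clones (horizontal axis) for the 75 ribosomal protein gene-end peaks (line) and 11993 other autosomal gene-end peaks (bars). The member distribution ends at 0.765, while the other peaks extend further to the right.

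Large losses and gains in single clones were fewer than at gene-end peaks in general, in a comparison not matched for level. Only 2 members lay below the 25th percentile of tested gene-end peaks in CPM. Weak peaks hold few reads, and how much of the difference follows level was not tested. A clone below 50% of the member's own median occurred at 15 members (20%), against 39.6% of other gene-end peaks, and a clone above 2 times the median at 11 (14.7%), against 25.2%. A clone below 25% of the median occurred at 1 member, Rpl19, whose peak lies at Cacnb1, against 12.3%. Without the shallowest libraries, 7160c2 and 6556c3, these were 10, 9 and 0 members, against 31.6%, 21.6% and 9.56%. In the other lists, with all clones, a clone below 25% of the median occurred at 1.35% of the mitochondrial ribosomal protein peaks and at 0% of the translation factor and assembly factor peaks. A clone above 2 times the median occurred at 12.2%, 22% and 12.3%, in this order. Values near those of the members were thus also found in other translation genes, and no difference between the lists was tested.

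Rpl7, Rpl31, Rpl38, Rpl21, Rps13 and Rps27a had the lowest SDs, from 0.164 to 0.274. Rpl7 (chr1:16104111-16105956, a peak also at the end of Rdh10) ran only from 94.6 CPM in 6694c2 to 142 CPM in 6421c2. Rpl31, a protein at the rim of the exit tunnel, ran from 37.1 to 55.6 CPM. Rpl38, known for its part in the translation of Hox mRNAs, ran from 32.9 to 59.2 CPM, and Rps27a, which is made as a fusion with ubiquitin, from 33.7 to 60.2 CPM. None of these 4 reached 2 times its lowest clone at its highest, and in 6499c3, the clone with the highest sum, Rpl31 was at 39.2 CPM and Rpl7 at 110 CPM, close to their medians of 42.5 and 110 CPM.

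High SDs were found at Rpl19 (0.765), Rpl4 (0.681), Rps26 (0.662), Rps28 (0.656) and Rpl8 (0.618). Of these Rps26 alone had a mean above 20 CPM. Rps28, a small protein of the small subunit, ran from 5.16 CPM in 6555c3 to 23.8 CPM in 6499c3. Rpl8, a protein close to the peptidyl transferase centre, ran from 4.32 CPM in 6620c1 to 27.1 CPM in 6499c3. At such levels single libraries hold few reads, and how much of the spread is counting error was not tested.

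Tumour cell clones can differ in chromosome copy number, and reads at a gene rise with its copies. The dosage of a chromosome in a clone was taken as the median deviation of log2 CPM over its other tested peaks. Across clones, the median slope on it was 1.01 log2 units per log2 unit for members, with 71 of 75 above 0. For other autosomal gene-end peaks it was 0.999, with 10371 of 11993 above 0. These other peaks are among those that set the dosage, so their slopes are not independent of it. The sizes of the median slopes rested on the scaling. With libraries scaled by the median of gene-end peaks, the median slope was 0.44 for members and 0.656 for other gene-end peaks. No single slope was called (limma adjusted p at 0.05 over 58017 autosomal peaks), against 0.0259% of all autosomal and 0.0331% of gene-end peaks called. The highest slopes were 3.22 at Rpl23, 2.53 at Rpl8, 2.35 at Rpl7a and 2.28 at Rplp1, an acidic protein of the ribosomal stalk. The lowest were -0.79 at Rpl6, -0.69 at Rpl9, -0.25 at Rpl29 and -0.0085 at Rplp2, the partner of Rplp1. Their standard errors, near 0.90 at the median member, make single slopes imprecise.

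Subtracting the dosage lowered the SD at 57 of 75 members (76%), against 72.7% of other gene-end peaks, and the median SD was then 0.374. With scaling by gene-end peaks, it lowered the SD at 33 members, against 59.0% of other gene-end peaks. In 162 of 234 pairs of a chromosome and a clone the member median and the dosage lay on the same side of 0. Chromosome 12 in 6499c3 and chromosome 16 in 2699c4 had the highest dosages, both 0.50. The members there had medians of 0.59 and 0.59, from 2 genes each. Chromosome 17 in 6499c3, with 7 members, had a member median of 0.77 at a dosage of 0.18; over all chromosomes the median member of that clone lay 0.43 above its mean.

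Dosage was also taken locally, from the peaks within 5 Mb on either side. The median local slope was 0.952 for members and 1.0 for other gene-end peaks. Subtracting local dosage lowered the SD at 63 of 75 members, against 77.1% of gene-end peaks. With scaling by gene-end peaks, the median local slope was 0.57 for members and 0.78 for other gene-end peaks, and the SD was lower at 42 members, against 69.2%. Of the 75 slopes 2 were called, against 1.07% of all autosomal and 1.05% of gene-end peaks: Rps26 (1.73, standard error 0.32, limma adjusted p = 0.0370) and Rpl41 (1.32, standard error 0.29, limma adjusted p = 0.0473). These 2 genes lie close together on chromosome 10 (peaks chr10:128626032-128627285 and chr10:128547301-128548087) and share the same 167 peaks as their local window, so they are not separate cases.

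**Figure D5:**
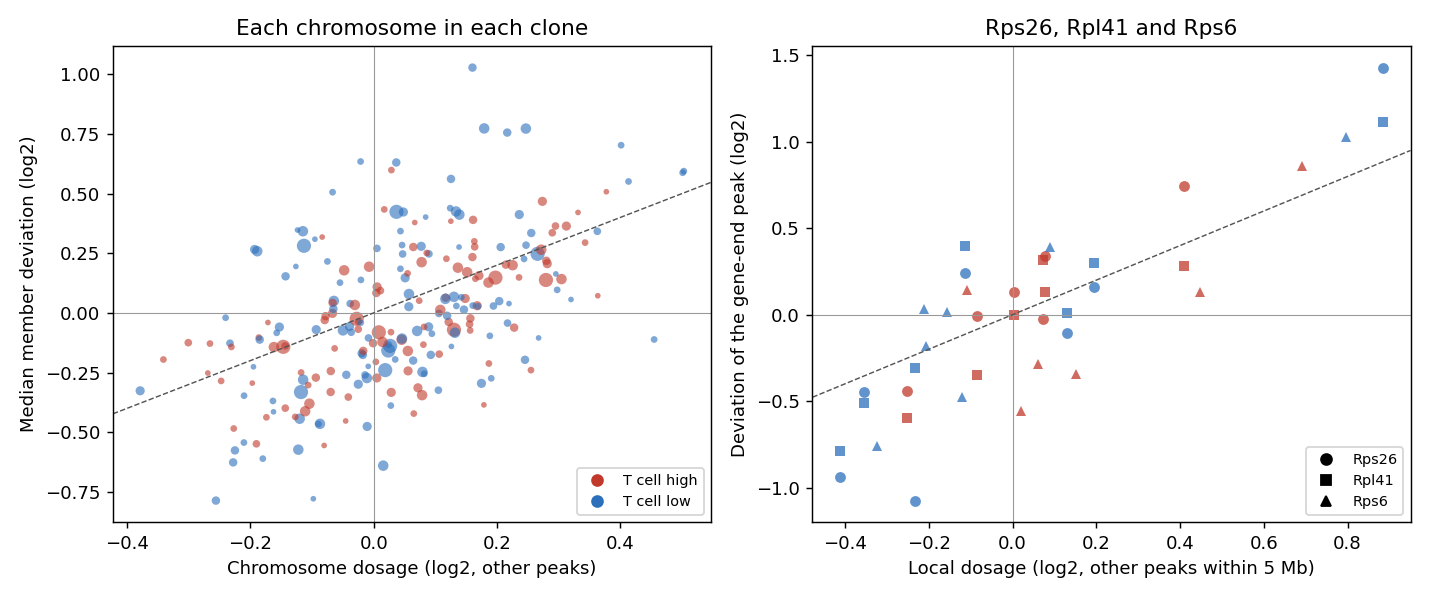
Left, median log2 deviation of members on each chromosome in each clone against the dosage of that chromosome, with larger points for more members. Right, log2 deviation of the peaks of Rps26, Rpl41 and Rps6 against local dosage in each of 13 clones; colours mark the groups and dashed lines a slope of 1. The clone 6499c3 lies farthest right for Rps26 and Rpl41 (0.885), and 6556c3 and 6421c2 for Rps6.

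Rps26, a small subunit protein at the mRNA exit channel, had from 17.7 to 41.3 CPM with a median of 25.4 in T cell high clones and from 11.2 to 66.7 CPM with a median of 22.5 in T cell low clones. Rpl41, the smallest ribosomal protein, had 101 CPM in 6499c3 and from 26.6 to 61.3 CPM in the other 12 clones. The chosen peak of Rpl41 is at the end of Zc3h10 and not over the start of Rpl41. Both were highest in 6499c3, where the local dosage was 0.885, and 6421c2 had the next highest local dosage, 0.41. Without 6499c3 the slopes were 1.79 and 1.37, but the adjusted p (limma) rose to 0.0760 and 0.107, so both calls were lost. With scaling by gene-end peaks the slopes were 1.72 (limma adjusted p = 0.0402) and 1.25 (limma adjusted p = 0.0647), so the call at Rpl41 was lost.

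Rps6, the small subunit protein phosphorylated by S6 kinases downstream of mTOR, lies on chromosome 4 (chr4:86856717-86857943). It had from 25.9 to 70.5 CPM with a median of 36.8 in T cell high clones and from 22.4 to 79.3 CPM with a median of 39.0 in T cell low clones. A single clone of each group stood high, 6421c2 at 70.5 CPM and 6556c3 at 79.3 CPM, and the next was 6694c2 at 50.7 CPM. These 2 clones also had the highest local dosages, 0.69 and 0.80, and the clone with the lowest level, 6422c1, had the lowest local dosage, -0.32. Other clones matched less closely: 6555c3 had the next highest local dosage, 0.45, at 42.1 CPM, and 6694c2 had a local dosage of 0.089. The local slope was 1.17 with a standard error of 0.33 (limma adjusted p = 0.0765).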

How the data were processed

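The values the authors deposited are raw read counts, whole numbers for each merged peak. Per the file headers they come from featureCounts 1.5.3 run without pair or strand options on alignments named as free of duplicates. Per the submitters' processing notes, the build was mm10 with DESeq2 among the tools. For the aligner, peak caller and any transposase shift, nothing is given in the sources read here. Counting reads lets both ends of a fragment count, so reads are not independent molecules.

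Gene ends were taken from RefSeq records of GRCm38.p6. Peaks were filtered with filterByExpr by group, scaled by TMM and tested in edgeR 4.0.16 (R 4.3.3) by the two-sided quasi-likelihood F-test, with Benjamini-Hochberg adjustment at 0.05. DESeq2 1.42.0 and limma-voom (limma 3.58.1) were alternatives. Log2 CPM used a prior count of 2. Dosage slopes were fitted in limma over all autosomal peaks, members left out of the dosage, with at least 20 peaks per window. The scripts were tested on simulated data. Total counts per library, from 968296 to 7369228, limit precision at weak peaks.

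Named members were the 6 highest and 4 lowest per kb, the 6 with the smallest p, the 6 highest and 6 lowest SDs, the 4 highest and 4 lowest slopes, any sharing a peak, the 6 paralogs and Rps6, and from each list the 2 with the smallest p. Some of these are not reported here. The members and lists were chosen with earlier results of these data known. Other settings were other scalings, filters, peak choices, tools and dosages, and each library left out in turn.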

Additional observations from a re-analysis of the deposited data

Results flagged for a closer look

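In 80 sets of values of 1 group, 9 had a lowest or highest clone that stood apart from the others by Dixon's test. The sets came from the named members and from measures of whole libraries. Many of these members were named for extreme values in these same data. The rate of about 5% of groups that holds for unselected sets therefore cannot be set against the 9. Of these, 5 were in 7160c2, the library with the fewest counts. In it Rpl29 was low at 20.9 CPM (21 reads; the other T cell high clones had 33.5 to 41.0 CPM) and Rpl4 was low at 3.99 CPM (4 reads; others 13.3 to 18 CPM). Rpl3l was high at 57.8 CPM (58 reads; others 34.8 to 37.0 CPM), Rpl9 at 48.9 CPM (49 reads; others 15.9 to 26.7 CPM) and Rps15 at 24.9 CPM (25 reads; others 11.2 to 15.9 CPM).

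Among T cell high clones, Rplp2 was low in 6555c3 at 18.9 CPM (44 reads; others 25.4 to 28.9 CPM), and Rps13 was high in 6620c1 at 38.9 CPM (90 reads; others 28.6 to 30.9 CPM). Rps6 was high in 6421c2 at 70.5 CPM (227 reads; others 25.9 to 42.6 CPM). Among T cell low clones, Rps26 was high in 6499c3 at 66.7 CPM (199 reads; others 11.2 to 28.9 CPM).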

How the results depend on the processing

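No member was called between T cell high and T cell low under any of the settings, including DESeq2, limma-voom and each of 13 libraries left out in turn. The number at an unadjusted p under 0.05 was 1, ran from 0 to 2 with a library left out, and was 0 without the 2 shallowest libraries (chosen after seeing the data), with chromosome dosage as an offset, with scaling by gene-end peaks and in limma-voom. The median log2 fold change ran from -0.087 to 0.010 with a library left out and from -0.12 to 0.046 otherwise. Members called for a dosage slope were 0, and 2 with local dosage, both lost without 6499c3, and 1 with local dosage scaled by gene-end peaks (both chosen after seeing the data). The median slope ran from 0.872 to 1.12 with a library left out and from 0.855 to 1.27 otherwise, except 0.44 (chromosome) and 0.57 (local) with scaling by gene-end peaks, chosen after seeing the data, and the median SD from 0.384 to 0.423 and from 0.347 to 0.430. The 16 genes with a printed fold change kept its direction under all 336 other settings by gene. These genes were picked for the smallest p-values in the main fit, and most settings reuse all or nearly all libraries. A kept direction was therefore likely beforehand and is no independent support. Depth limits the weakest members, with as few as 2 reads in a library. No paired analysis was possible because the labels give no replicate numbers and the groups share only 1 clone number in their names, that of 6499c3 and 6499c4.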
